A study of Homo sapiens with 8 samples.

Results

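The 871 regions described here were called as accessible in 4 of 4 libraries of mitotic cells treated with the Plk1 inhibitor 3MB-PP1 and in 0 of 4 libraries treated with DMSO. They were chosen by merging all peaks of the 8 deposited lists on chromosomes 1 to 22, with at least 1 bp of overlap and no limit on width, which gave 583075 regions, so 0.149% met the rule. The presence and absence of calls chose them, so that pattern is a description and not a finding, and an absent call is not an absent signal. Chromatin accessibility had been measured by ATAC-seq, in which the Tn5 transposase inserts adapters into open DNA. All 8 libraries came from 1 genotype, hTERT RPE-1 Plk1-/- EGFP-Plk1as, a human telomerase-immortalised retinal pigment epithelial line without endogenous Plk1 that carries a GFP-tagged analog-sensitive kinase. All cells had been held for 16 h in 5 µM STLC, which blocks the kinesin KIF11 and arrests cells in prometaphase, and were shaken off. For the next 2 h, with STLC still present, 4 samples received 0.5% DMSO and 4 received the inhibitor at 10 µM. The mitotic index exceeded 95%, and each reaction held 50000 cells. The submitters call the 4 replicates of a group biological, without naming their cultures, and neither the promoter of the transgene nor the number of clones behind the line is given in the labels. No library without STLC or without the analog-sensitive allele was used.

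Plk1 is a polo-like kinase that drives centrosome maturation, spindle assembly and kinetochore attachment. In mitosis, chromosomes condense, most transcription stops and many factors leave the chromatin, while part of the interphase accessibility persists at promoters and other regulatory sites. The study asked whether Plk1 activity bears on the accessibility of mitotic chromosomes.

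Of the 871 regions, 16 touched a RefSeq promoter window (GRCh38.p14, 250 bases before to 50 after an annotated start), with 21 windows among them. Sequence of the remaining regions is not shown, because no genome was used here. The 4 promoters below are shown because bases before the first annotated start of the gene were covered by a peak in all 4 3MB-PP1 lists, so they place the shared calls on a known sequence. SIM1 and RGS8 also had such bases, but before an inner start, and are not printed. Each run gives the 250 bases before the start, 5′ to 3′ on the gene's strand, and capitals mark the bases covered in all 4 lists. The genes were chosen after their values were seen.
PURPL (chr5:27472042-27472291, + strand): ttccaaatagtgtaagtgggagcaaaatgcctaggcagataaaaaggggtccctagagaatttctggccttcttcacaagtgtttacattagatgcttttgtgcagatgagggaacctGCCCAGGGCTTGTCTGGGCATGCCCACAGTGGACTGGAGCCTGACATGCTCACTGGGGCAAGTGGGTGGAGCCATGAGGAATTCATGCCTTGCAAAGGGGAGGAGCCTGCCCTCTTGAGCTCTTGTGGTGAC
HIF1A-AS3 (chr14:61751098-61751347, - strand): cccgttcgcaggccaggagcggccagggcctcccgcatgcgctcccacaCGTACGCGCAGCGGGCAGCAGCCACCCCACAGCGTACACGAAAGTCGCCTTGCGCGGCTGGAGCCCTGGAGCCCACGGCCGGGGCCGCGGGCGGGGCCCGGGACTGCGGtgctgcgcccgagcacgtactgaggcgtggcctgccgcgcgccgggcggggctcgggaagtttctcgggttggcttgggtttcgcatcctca
LOC105376649 (chr11:44974401-44974650, - strand): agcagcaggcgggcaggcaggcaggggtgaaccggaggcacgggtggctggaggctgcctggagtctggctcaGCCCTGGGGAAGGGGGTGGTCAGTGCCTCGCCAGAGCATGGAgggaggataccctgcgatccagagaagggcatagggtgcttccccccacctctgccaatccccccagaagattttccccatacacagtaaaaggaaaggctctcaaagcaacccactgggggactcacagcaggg
TM6SF1 (chr15:83107395-83107644, + strand): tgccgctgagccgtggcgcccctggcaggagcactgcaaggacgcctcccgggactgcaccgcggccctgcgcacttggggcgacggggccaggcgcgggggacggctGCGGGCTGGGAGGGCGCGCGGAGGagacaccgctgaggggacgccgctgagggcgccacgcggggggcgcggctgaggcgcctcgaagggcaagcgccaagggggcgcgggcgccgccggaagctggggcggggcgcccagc
PURPL is a long non-coding RNA induced by p53, and 132 of the 250 bases before its start were covered in all 4 lists, with 0 CG dinucleotides in the run. HIF1A-AS3 is a non-coding RNA at the HIF1A locus, with 109 shared bases and 33 CG dinucleotides. The uncharacterised non-coding RNA LOC105376649 had 42 shared bases and 5 CG dinucleotides, and TM6SF1, which encodes a membrane protein, 24 and 35. Of the 21 windows, 15 (71.4%) held at least 10 CG dinucleotides in 300 bases (the letters CG, read on 1 strand, which are the same on the other), against 56.3% of 33725 autosomal windows of the same length. Windows that share a region, such as those of FOXD3 and FOXD3-AS1, all held at least 10. The 21 windows come from 16 regions, so these regions count more than once, and the difference was not tested.

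The DMSO lists held 149172 to 197782 autosomal peaks and the 3MB-PP1 lists 169667 to 250548, covering 88.0 to 114.5 Mb and 76.4 to 99.2 Mb. The median peak width was 355 to 409 bp with DMSO and 269 to 324 bp with 3MB-PP1. Read depth is unknown, since the lists give no read totals. As a check of the cell type, peaks within 1 kb of a gene end were found in at least 7 of the 8 lists for all 6 genes of the line, KRT8, KRT18, VIM, CDH2, COL1A2 and AXL. Of 7 genes of differentiated retinal pigment epithelium, PMEL, MITF and OTX2 had a peak in all 8 lists, RPE65 in 0, and BEST1, RLBP1 and TYR in 2, 5 and 2. PTPRC, ALB and MYOD1, genes of blood, liver and muscle, had a peak in 0 lists, while CD3E, also a blood gene, had one in 8. The deletion of endogenous Plk1 cannot be checked from peak lists.

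The number of regions was set against the other ways of splitting the same 8 lists. Over the 70 assignments of 4 lists as callers and 4 as non-callers, the number of regions called in 4 and in none of the other 4 ranged from 123 to 1687, with a median of 455. The assignment by treatment ranked 7th, and 7 of the 70 gave 871 or more (exact one-sided permutation p = 0.1, smallest possible 0.0143; Benjamini-Hochberg adjusted p = 0.3 over 6 measures). The highest count, 1687, came from DMSO replicate 4 with 3MB-PP1 replicates 2, 3 and 4 as callers. The difference from the other assignments did not pass the threshold. The mirror pattern, called in every DMSO list and in no 3MB-PP1 list, held 702 regions (0.120% of all). DMSO replicate 4 moved the count most among the controls. Without it, 2504 regions had a peak in every 3MB-PP1 list and in 0 of 3 DMSO lists, more than in any other of the 35 assignments of 7 lists (exact one-sided permutation p = 0.0286, the smallest these allow). Without DMSO replicates 1, 2 or 3 the numbers were 1124, 1270 and 1463, and without 3MB-PP1 replicates 1, 2, 3 or 4 they were 2557, 2056, 1704 and 2337, with exact one-sided permutation p-values of 0.0857 to 0.371. Leaving out a list asks for fewer calls, so these numbers are read against their own 35 assignments and not against 871. The p-values for leaving out each of the 8 lists were not adjusted, and the exact one-sided permutation p of 0.0286 is the lowest of them.

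**Figure D1:**
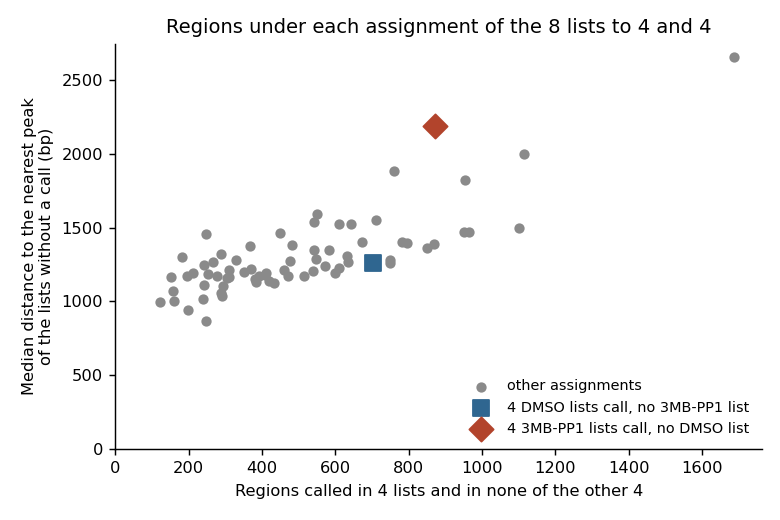
Each point is 1 of the 70 assignments of the 8 lists to 4 callers and 4 non-callers; the horizontal axis is the number of regions called in 4 lists and in none of the other 4, and the vertical axis their median distance in bp to the nearest peak of the non-calling lists. The diamond, 4 3MB-PP1 callers, lies at 871 regions and 2189 bp, and the square, 4 DMSO callers, at 702 regions and 1259 bp.

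Just outside the rule lay 5258 regions that 3 of the 4 inhibitor lists called and no DMSO list did, and 2937 that all 4 inhibitor lists and 1 DMSO list called. The median of the mean within-list percentile was 46.4 in the 871 regions, 43.3 in the former set and 49.4 in the latter. These percentiles rank each peak by its -log10 p within its own list, with 100 the strongest. For comparison, regions called in all 8 lists numbered 36170, with a median of 79.9, and those called in a single list had 31.5. The 35455 regions called in exactly 4 lists, whichever these were, had a median of 44.7, and those called only with DMSO had 46.0. The 871 regions sat near the middle of their lists in rank, as these 2 sets did, and well under the regions of all 8 lists. This rank is therefore not particular to them.

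In each 3MB-PP1 list the peaks of these regions sat slightly under the middle of the list. Their median percentile was 45.8 in replicate 1, 45.8 in replicate 2, 47.6 in replicate 3 and 45.4 in replicate 4. The median deposited fold over background was 2.91, 2.63, 2.69 and 2.70, against 2.88, 2.63, 2.67 and 2.68 over all peaks of the same lists. The values of the 4 libraries lay close together and close to those of their own lists. Peaks with -log10 q of at least 2 made up 19.6%, 8.73%, 16.3% and 9.76% of the regions, less than the 29.2%, 17.9%, 22.1% and 18.5% of all peaks in those lists. Only 3 of the 871 regions reached that value in 4 of 4 lists. For 4 regions, -log10 q reached 5 in at least 1 library. Median peak widths were 281, 310, 333 and 308 bp, above the list medians of 269, 297 and 275 bp in replicates 1 to 3 and under the 324 bp of replicate 4.

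**Figure D2:**
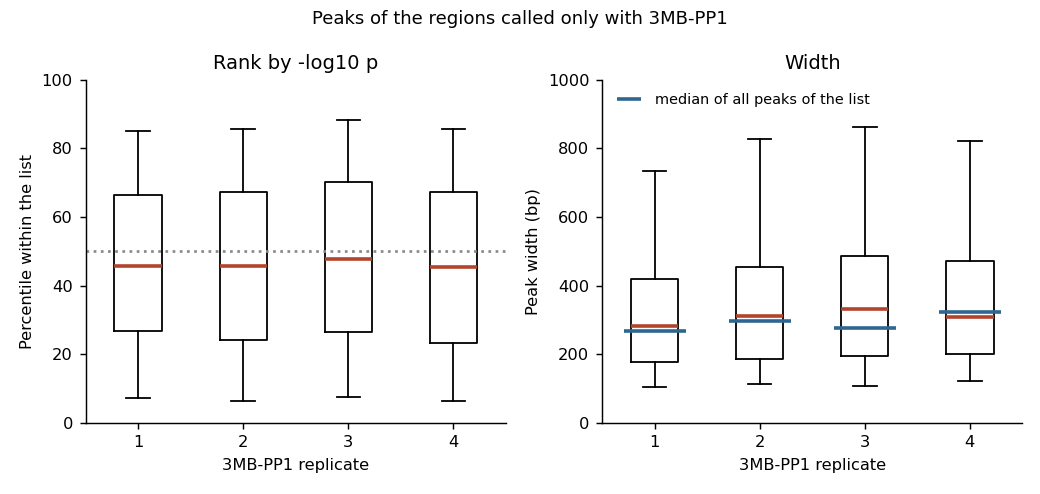
Boxes show the middle of the 871 values in each 3MB-PP1 replicate (box from the 25th to the 75th percentile of regions, whiskers at the 5th and 95th, red line the median), on the left as percentile within the list with a dotted line at 50 and on the right as width in bp with the list's own median in blue. The red medians lie between 45.4 and 47.6 on the left and between 281 and 333 bp on the right.

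The calls in the 4 libraries often did not share a base. Although 834 regions held 1 peak per list, 364 of the 871 had no base covered in all 4 lists, because overlapping peaks were chained. The remaining 507 (58.2%) had a common stretch, and the median over all regions was 31 bp, or 4.98% of the region's width. At least 100 bp were common to the 4 lists in 253 regions. This share lay inside the 41.1% to 65.4% found over the 70 assignments, and the regions called only with DMSO had 65.4%. Counting only regions with a common base, 507 remained, and 9 of the 70 assignments gave as many or more (exact one-sided permutation p = 0.129).

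The order of the regions by rank was nearly unrelated between 3MB-PP1 libraries. Across the 871 regions, the Spearman correlation of percentiles between pairs of 3MB-PP1 lists was 0.0213 to 0.0922 over the 6 pairs. In the 2937 regions with 1 additional DMSO call it was 0.0419 to 0.117, and in the 36170 regions of all 8 lists 0.723 to 0.821. These correlations are across regions, which are not independent replicates, and weak peaks span a narrow range of values. The SD of a region's percentile over the 4 lists had a median of 23.6 points, against 9.83 for regions in all 8 lists, and 49 regions had an SD of at most 10.

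Named by rank, 3 regions stood above the 90th percentile in 4 of 4 lists, and they are the same 3 with -log10 q of at least 2 throughout. The first lay at chr2:241896286-241897003, inside FAM240C, which is protein-coding, and LINC01237, which is not. Its -log10 q was 16.5, 14.6, 14.6 and 16.3 in replicates 1 to 4, its fold 5.05, 3.66, 4.26 and 4.02, and its percentile 98.5 to 99.3. All 4 libraries were high here, yet the nearest DMSO peak began 1047 bp away, in replicate 4, and the 4 3MB-PP1 peaks had only 88 bp in common. The second, at chr20:16227129-16227894, lay outside genes, 2594 bp from the pseudogene PPIAP17. Its -log10 q was 7.67, 6.28, 6.12 and 3.31, and 432 bp were common to the 4 lists. A DMSO replicate 4 peak lay 806 bp from it, while the other DMSO lists had none within 5 kb. The third, at chr20:29448877-29449209, overlapped DUX4L35, a pseudogene of a repeated family with many near-identical copies, so its position is uncertain. Its -log10 q was 4.30, 3.28, 6.39 and 3.42, with 105 bp in common.

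The next 7 by rank were weaker and more variable. They had mean percentiles of 84.3 down to 77.4, with SDs of 7.27 to 16.2 (n = 4). They lay on chromosomes 9, 12, 10, 8, 19 and 6. The region at chr12:95907566-95908430 within CCDC38 had 459 bp in common and percentiles of 78.1, 94.3, 71.3 and 87.0. The one at chr10:79570584-79571499, which lay 10177 bp from SFTPA2, a surfactant protein gene, had 329 bp in common and percentiles of 64.3, 74.4, 92.4 and 89.2. The region at chr9:88827394-88828313 ranked 4th, but no base of it was covered in all 4 lists. Within GMDS, which encodes an enzyme of GDP-fucose synthesis, chr6:1756558-1756852 had 58 bp in common. The region with the longest distance to DMSO peaks among these 10, 36240 bp, lay in the long non-coding RNA gene LNCPOIR on chromosome 6.

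Whether the pattern recurs was examined by leaving out the calls of each replicate number in turn. The regions stayed those merged from all lists, so peaks of the left-out pair still set boundaries and could chain other peaks. The left-out libraries were therefore not independent of the choice, and calls in them may be partly built in. How large this part is was not tested. Regions called in the 3 remaining 3MB-PP1 lists and in none of the 3 remaining DMSO lists were then looked up in the pair left out. Of 3044 regions chosen without number 1, 1119 (36.8%) were called in 3MB-PP1 replicate 1 and 489 (16.1%) in DMSO replicate 1. Over all 503408 regions of the other 6 lists, these libraries called 28.8% and 23.4%. Without number 2, 45.2% of 2827 regions were called in the 3MB-PP1 library and 26.1% in the DMSO library, with 28.7% and 24.9% over all regions. Without number 3, the values were 54.0% and 36.0% of 2717 regions, with 34.5% and 32.1% over all.

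In these 3 pairs the inhibitor library called more of the chosen regions than its control. The pair numbered 4 went the other way: of 5157 regions, 49.5% were called in the 3MB-PP1 library and 54.3% in the DMSO library, with 25.1% and 29.6% over all regions. The mean difference was 13.3 percentage points (SD 12.1, n = 4 pairs; exact two-sided sign-flip permutation p = 0.25, smallest possible 0.125), from 46.4% ± 7.36 to 33.1% ± 16.3 (SD, n = 4). With 4 pairs this test could not pass a threshold of 0.05, and the pair differences were 20.7, 19.1, 18.0 and -4.71 points. Regions chosen in the mirror direction differed by -12.4 points (SD 5.04, n = 4), lower in 3MB-PP1 in 4 of 4 pairs (exact two-sided sign-flip permutation p = 0.125). Over all regions the difference was 1.77 points (SD 4.35, n = 4). With the latter subtracted pair by pair, that of the regions chosen on 3MB-PP1 was 11.5 points (SD 7.82; exact two-sided sign-flip permutation p = 0.25), above 0 in 3 of 4 pairs.

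**Figure D3:**
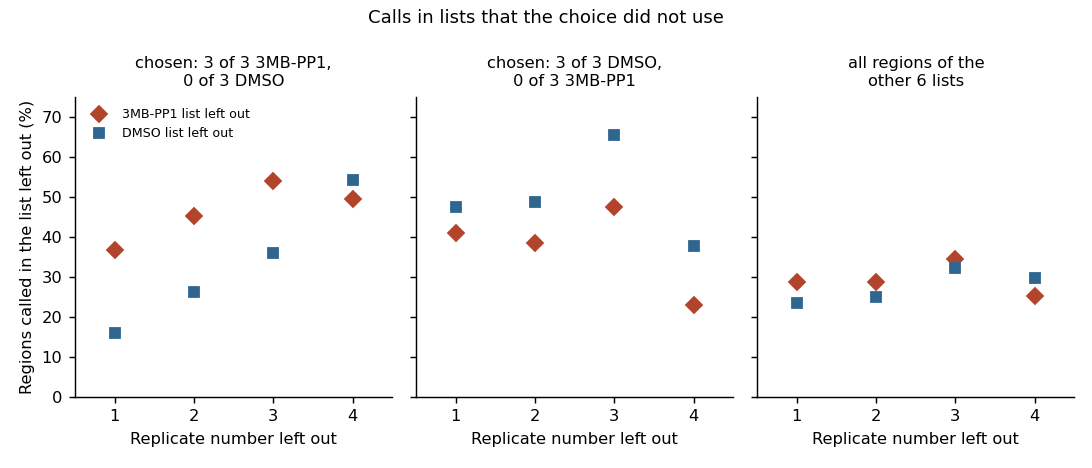
Points give the percent of regions called in the 3MB-PP1 list (diamonds) and the DMSO list (squares) of the replicate number left out, for regions chosen on the other 3 pairs as 3MB-PP1 only (left) or DMSO only (middle) and for all regions of the other 6 lists (right). On the left the diamond is the higher in replicates 1 to 3, while in replicate 4 the square lies at 54.3% and the diamond at 49.5%. Regions were merged over all lists, so peaks of the left-out pair helped set their boundaries.

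Taking the odd-numbered lists of both treatments as callers gave 1100 regions, more than the split by treatment. Odd and even numbers were therefore also used in turn to choose regions. The choice was made among the same merged regions, so peaks of the lists looked up had helped set boundaries here too. Of 19874 regions called in both odd-numbered 3MB-PP1 lists and neither odd-numbered DMSO list, 41.5% and 38.1% were called in 3MB-PP1 replicates 2 and 4, and 25.8% and 42.9% in DMSO replicates 2 and 4. Over all regions the same libraries called 31.5%, 27.75%, 28.2% and 32.8%. The groups overlapped, and DMSO replicate 4 was the highest. Of 11927 regions chosen in the same way on the even numbers, 32.5% and 43.1% were called in 3MB-PP1 replicates 1 and 3 and 19.3% and 31.75% in DMSO replicates 1 and 3. Over all regions they called 34.5%, 40.2%, 28.2% and 37.35%. Here the groups did not overlap, by a narrow margin, and 3MB-PP1 replicate 1 called a smaller share of the chosen regions than of all regions. With 2 libraries per group no test was made.

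Distances were taken to the peaks of control cells. Measured from the region's edge, the nearest peak of any DMSO list was at a median of 2189 bp, with 267 regions (30.7%) within 1 kb, 621 (71.3%) within 5 kb and 750 (86.1%) within 10 kb. The nearest lay 4 bp away. Per library, the median distance was 7209 bp to DMSO replicate 1, 6108 bp to replicate 2, 5409 bp to replicate 3 and 4566 bp to replicate 4, an order that follows the number of peaks in those lists. Distances to the nearest other peak of the 3MB-PP1 lists were 4728, 4618, 3695 and 5766 bp in replicates 1 to 4. The rule itself keeps DMSO peaks from overlapping, so the 70 assignments serve as the reference. Among these the median distance ran from 869 to 2658 bp, and 2 gave 2189 bp or more (exact two-sided permutation p = 0.0571, adjusted p = 0.3 over 6 measures, smallest possible p 0.0286). With all lists reduced to the length of the shortest, the distance was 2826 bp. The exact two-sided permutation p was then 0.0286, the smallest possible and not adjusted over measures or alternatives. The regions called only with DMSO were nearer to the other treatment's peaks, at a median of 1259 bp, close to the 1254 bp that was the median over assignments. These distances are not like for like, since the 3MB-PP1 lists held 169667 to 250548 peaks and the DMSO lists 149172 to 197782.

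**Figure D4:**
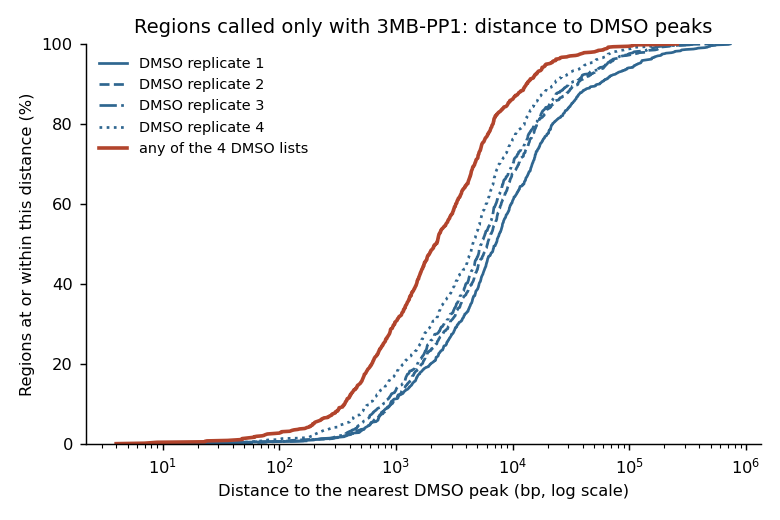
Cumulative percent of the 871 regions (vertical axis) by distance in bp to the nearest DMSO peak on a log scale (horizontal axis), for each DMSO list in blue and for any of the 4 lists in red. The red line passes 30.7% at 1 kb and 86.1% at 10 kb, and each single list lies to its right.

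For 476 regions (54.7%) the nearest DMSO site was itself called in only 1 DMSO list, and for 325 (37.3%) in no 3MB-PP1 list. Of all 362397 regions called with DMSO, 54.3% and 36.9% were so, near the same shares. The 121 regions over 10 kb from any DMSO peak had a median mean percentile of 47.0 and the 267 within 1 kb had 45.7, a difference of little over 1 percentile point. Within 1 kb of DMSO peaks, 33.7% of regions lay outside genes and gene ends, against 43.0% of those over 10 kb away. The farthest, at chr22:16131391-16132016, was 258297 bp from a DMSO peak and had percentiles of 58.2, 91.6, 80.4 and 68.0. It lay 453 bp from the pseudogene LOC100292922. At 5 to 10 kb from the regions' centres, DMSO lists covered 1.18 to 1.38 times their autosomal average and 3MB-PP1 lists 1.30 to 1.38 times. Between 2.5 and 5 kb the ratios were 0.804 to 0.911 and 0.715 to 0.853. The median distance to a region called in all 8 lists was 27980 bp, against 23020 bp for all regions not in 8 lists.

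Along the chromosomes the regions were mostly alone. Of the 871, 88 (10.1%) had another within 100 kb and 783 had none. They formed 41 groups of 2, 2 groups of 3 and no group of 4 or more. The share with a neighbour grows with the number of regions, and 10 of the 70 assignments gave 10.1% or more (two-sided exact permutation, p = 0.286 and 0.514 after adjustment), with 10.4% for the 702 regions called only with DMSO. The 2 groups of 3, chosen after their values were seen, lay between 12793069 and 12876272 on chromosome 4, outside genes, and between 5557305 and 5676135 on chromosome 12. In the latter, 2 of the 3 regions lay within ANO2, a calcium-activated chloride channel gene, at mean percentiles of 59.6 and 57.05 with no base common to the 4 lists. Within 10 kb of each other were 18 regions, or 2.07%.

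The regions were unevenly spread over chromosomes relative to the 583075 merged regions, with 1.49 per 1000 overall. By rate, chromosome 9 was the highest with 2.41 per 1000 (66 regions), followed by chromosomes 21 (2.13), 22 (2.08) and 6 (2.04). By number, chromosome 12 held the most, 80. The lowest rate was on chromosome 3, with 0.771 per 1000 (28 regions). The regions called only with DMSO showed other rates, 0.729 per 1000 on chromosome 9 and 1.79 on chromosome 3, with 1.20 overall. On 17 of 22 chromosomes the 3MB-PP1-only regions were the more numerous, and on chromosomes 1, 2, 3, 5 and 14 the fewer. The ratio of counts was highest on chromosome 19, 28 against 7. Over all chromosomes the counts were 871 against 702, so more 3MB-PP1-only regions on most chromosomes partly reflects these totals. These are descriptions without a test, since the same calls chose the regions. The share of all peaks on chromosome 9 was 4.63% to 5.16% in the 3MB-PP1 lists and 4.52% to 4.66% in the DMSO lists, which overlap, and on chromosome 3 it was 5.50% to 5.98% and 6.01% to 6.42%, which do not. The part of this list-wide difference in the counts was not tested.

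**Figure D5:**
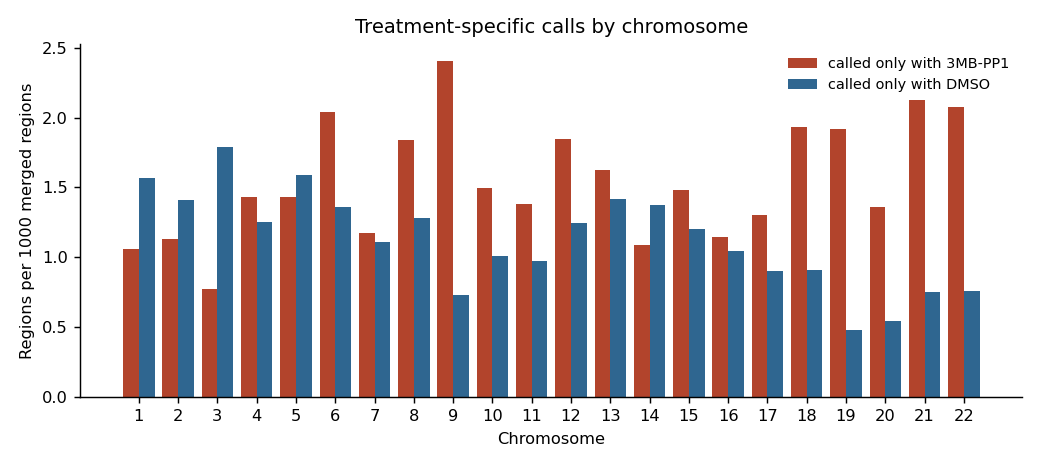
Bars give, for each autosome, the number of regions called only with 3MB-PP1 (red) or only with DMSO (blue) per 1000 merged regions of that chromosome. Red reaches 2.41 on chromosome 9 and 0.771 on chromosome 3, where blue reaches 0.729 and 1.79.

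By gene context the regions resembled all called regions. Gene bodies of any kind were overlapped by 516 (59.2%), and 349 (40.1%) overlapped no gene and no end of a protein-coding gene, against 61.7% and 37.5% of all regions. Over the 70 assignments the latter share ranged from 30.1% to 43.3%, with 24 at 40.1% or more (exact two-sided permutation p = 0.686, adjusted p = 0.823). Protein-coding genes were overlapped by 389 regions, long non-coding RNA genes by 131, pseudogenes not marked as transcribed by 25 and transcribed pseudogenes by 7. A region could count under more than 1 kind. These counts are descriptions, since none by gene kind is given for all regions. The gene table gives no exons, so exonic and intronic positions were not separated. Merged regions had a median width of 662 bp, near the 683 bp that was the median over assignments (exact two-sided permutation p = 0.343, adjusted p = 0.514).

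Few of these regions lay at ends of protein-coding genes. Within 1 kb of such an end lay 30 regions (3.44%), against 4.64% of all regions, 29.0% of those called in all 8 lists and 2.71% of those called only with DMSO. The median over assignments was 3.46% (exact two-sided permutation p = 1.0, adjusted p = 1.0). Annotated starts, for genes whose strand is known, were within 1 kb of 13 regions (1.49%), against 2.44% of all regions and 0.570% of those called only with DMSO. The 20 highest-ranked genes fell into several kinds.

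Among regulators of transcription, RAX, a retinal homeobox factor, had the highest mean percentile, 66.9 ± 22.2 (SD, n = 4), with 75.9, 88.9, 66.2 and 36.65 in replicates 1 to 4. Its region lay 325 bp from the start and 349 bp from a DMSO replicate 4 peak. FOXE1, a forkhead factor of the thyroid, was overlapped at its start at 54.0 ± 30.3, SIM1 at 47.3 ± 28.8, and regions lay near the 3′ ends of FOXD4, DMRT3, a DM-domain factor, and SCMH1, a Polycomb group protein. FOXD3, also a forkhead gene, outside the naming rule and chosen after its values were seen, had a region at its start at 29.2 ± 20.4. The RAX, FOXE1 and FOXD3 regions had no base common to the 4 lists.

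KIF2C, which encodes the kinesin-13 MCAK that depolymerises microtubules at kinetochores, had a region 980 bp from its start at chr1:44738244-44738857. Its percentiles were 62.05, 88.0, 61.2 and 30.0, and each DMSO list had a peak 370 to 677 bp away. KIF2C is not in the list of mitotic genes counted. Starts of KRTAP19-5, a keratin-associated protein gene, TOMM20L, ANXA3, an annexin, PDE2A, a cyclic nucleotide phosphodiesterase, and GPR45, an orphan receptor, were overlapped directly. For TOMM20L the 4 percentiles were 47.3, 78.2, 81.9 and 25.5, and for ANXA3 47.6, 53.1, 43.2 and 80.2. No replicate was the highest throughout. The others of the 20 were ASPRV1, LOC124900290, INKA2, EVA1C, TMEM81, LOC124903317, SLC24A2, a sodium, potassium and calcium exchanger, and OTOA, a protein of the inner ear. Mean percentiles ranged from 37.5 to 66.9 over these 20 genes. None of the 30 regions at gene ends had a DMSO peak more than 10 kb away.

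The PURPL promoter region, whose sequence opens the list of promoters above, lay at chr5:27472079-27472408. Its -log10 q was 1.97, 1.38, 5.02 and 1.57 in replicates 1 to 4, with replicate 3 far above the other 3, and its percentiles ran from 46.4 to 95.6. The nearest peak of any DMSO list was 23510 bp away. At HIF1A-AS3 the percentiles were 70.5, 14.7, 49.9 and 22.85 and at TM6SF1 8.09, 8.60, 43.7 and 47.5. At LOC105376649 they were 21.3, 66.8, 11.8 and 51.6, with a DMSO peak 129 bp away. The replicates differed widely at each of these promoters.

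Inside genes, 535 genes held at least 1 region, 40 held at least 2 and 2 held 3. The latter were SYN3, a synapsin gene of 550.6 kb on chromosome 22, and PTPRM, a receptor tyrosine phosphatase gene of 839.5 kb on chromosome 18. TIMP3, a metalloproteinase inhibitor gene expressed in retinal pigment epithelium, lies within SYN3, and its 2 regions are 2 of the 3 in SYN3, at mean percentiles of 46.9 and 42.2 with no base common to the 4 lists. Shorter genes with 2 regions were the pseudogene USP41P, LOC105374428 and the potassium channel gene KCNG2. The 361 protein-coding genes holding a region had a median length of 155.6 kb, against 24.5 kb for all 19122. Longer genes have more room for an overlap, and no such length is given for genes holding other regions. Whether this contrast is particular to these regions was not tested. Genes of at least 500 kb held 81 regions (9.30%), against 8.03% of all regions and 6.98% of those called only with DMSO.

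Gene lists were counted with 1 kb on either side, where 368 of 19122 protein-coding genes (1.92%) had a region. Of 26 mitotic genes, covering polo-like kinases, cyclin B, Aurora kinases, spindle checkpoint and condensin subunits, 1 had a region. This was KIF11, the target of STLC, at chr10:92640407-92640979, with percentiles of 14.35, 56.95, 86.5 and 71.15, no common base and a DMSO peak 3243 bp away. PLK1 had none. Of 19 very long autosomal genes at common fragile sites, 6 had a region, CNTNAP2, CSMD1, CTNNA3, DLG2, MACROD2 and PTPRD, and 2 had one called only with DMSO. These genes have a median length of 1504 kb, so the 1.92% of all protein-coding genes is not a like reference. No share was taken for other genes of such length, and an excess was not tested. No region was found at 391 olfactory receptor genes, 63 protocadherin genes or 87 histone genes, while 7 of 505 ZNF genes and 1 of 94 KRTAP genes had one. Regions called only with DMSO were found at 2 olfactory receptor, 0 protocadherin and 0 histone genes. The median lengths of these kinds are 2.97, 99.99 and 0.51 kb, against 24.5 kb for all protein-coding genes, and whether the absences exceed what length and number give was not tested. The shares for the ZNF and KRTAP genes, 1.39% and 1.06%, lay near the 1.92% of all genes.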

How the data were processed

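ATAC-seq peak lists of 8 libraries were used, 1 per library, grouped and numbered by their titles. Peaks had been called per library, and MACS2 and build hg38 are named in the submitters' processing notes; aligner, read filters, Tn5 shift and settings are not given in the sources used here. From the values, the deposited columns hold the peak's length, its pileup (a signal, or coverage, with no stated scaling), -log10 p, fold enrichment (a ratio to background) and -log10 q of at least 1. The deposited fold, pileup and -log10 values come from the authors and serve mainly within a list. Where they stand side by side across lists, or were screened for a library standing apart, they are descriptions, since no scaling between lists is stated. A list with more or wider peaks has more chances of overlap.

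Peaks on chromosomes 1 to 22 were merged with at least 1 bp of overlap. Genes, 59094 entries of which 27196 have a strand, and promoter sequences came from RefSeq (GRCh38.p14); windows were 1 kb around either gene end. Single values were tested by exact permutation over 70 assignments of lists, and calls in left-out pairs by exact sign flips. P-values measure the spread between these libraries, which may be technical. Same-numbered lists deviated together (correlation of peak shares in 1 Mb bins 0.341 to 0.616 in 4 of 4 pairs), so treatment was also permuted within pairs. Lists of different number that were both odd or both even also did (0.288 to 0.417), while odd against even gave -0.515 to -0.275. Leaving out 1 number therefore keeps lists that deviate with the left-out pair among those that choose. Regions named are the 10 highest by mean percentile and groups of at least 4 within 100 kb; genes are the first 20 with a region at an end and the first 6 by regions held. Members, lists and tests were chosen with earlier results of these data known. Tools were Python 3.11.15, numpy 2.4.6 and pandas 2.3.3, with interval functions checked against bedtools 2.31.1 (0 differing distances). In a check of the code, 200 of 200 planted regions were recovered among 7999 simulated ones. The simulated regions were set apart and could not chain as real peaks did, so their recovery was fixed in advance and says nothing about the calls. The result for 1 marker gene is not reported here. Alternatives were thresholds, list length, width, merging, window and leaving out libraries.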

Additional observations from a re-analysis of the deposited data

Results flagged for a closer look

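Values of 4 libraries are listed where the most distant one was separated from its neighbour by more of the group's range than Dixon's 95% critical value. Of 19 groups 2 did so, where chance gives about 1 in 20.

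The median pileup of the peaks in the 871 regions was lowest in the first 3MB-PP1 replicate, at 9.04, with 10.3 to 10.4 elsewhere, a gap of 0.948 of the range; the median over all peaks of that list, 9.71, was also under the 10.9 to 11.1 of the others.

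Between 2.5 and 5 kb from the regions' centres, DMSO replicate 4 covered 0.911 times its autosomal average and the other DMSO lists 0.804 to 0.816, a gap of 0.882. This list also called more of the regions chosen on the other pairs than its 3MB-PP1 partner did.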

How the results depend on the processing

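The number of regions depended on the threshold: in place of 871 it was 37 where -log10 q had to reach 2 (permutation p = 0.729, exact and one-sided), 3 at 5 and 448 with lists of equal length (exact one-sided permutation p = 0.229). Each threshold was applied to all 8 lists before merging, so regions could also enter where weaker DMSO peaks were dropped. Of the 871 themselves, 3 reached 2 and 1 reached 5 in 4 of 4 lists, so the 37 and the 3 were not drawn only from them. It was 234 when at least 50% of the region had to be covered and 507 with a common base, the latter chosen after the data were seen. It ranged from 1124 to 2557 leaving out a library, which by construction asks for fewer calls. At -log10 q of at least 2 the share outside genes was 32.4%, the share at gene ends 8.11% and the distance 5640 bp, each on the other side of the median over assignments. With equal list lengths the share outside genes (38.8%) and the share with a neighbour within 100 kb (3.57%) also changed sides. The distance of 2826 bp then passed the threshold only before adjustment (exact two-sided permutation p = 0.0286, the smallest possible). It was not adjusted over measures or alternatives. Leaving out a library gave 38.2% to 40.05% outside genes, 3.40% to 4.09% at gene ends, 11.4% to 23.1% with a neighbour, distances of 1806 to 3298 bp and widths of 538 to 732 bp, with changes of side for the shares outside genes, at gene ends and for the width. The cause was not tested. With the replicate number as a block, permuting within pairs, the count of 871 had an exact one-sided permutation p of 0.125 (smallest possible 0.0625) and the distance of 2189 bp an exact two-sided permutation p of 0.125; the share at gene ends, 3.44%, lay above the median of those 16 assignments. For the distance, this exact two-sided permutation p of 0.125 is the smallest that 16 assignments allow. With so few assignments no measure could pass the threshold under the block, and none had passed without it. The block therefore could not change a call, and nothing is concluded from it. The difference in left-out lists stayed above 0 in all 6 alternatives, from 2.39 to 12.3 points; 3 of these (odd numbers, even numbers, all regions subtracted) were also chosen after the data were seen. Read depth is unknown and limits every absence of a call.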

Other observations

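Near the ends of chromosomes, measured from the outermost called base, 105 of the 871 regions (12.1%) lay within 5 Mb, against 10.7% of all regions and 7.26% of those called only with DMSO. Within 2 Mb the shares were 5.28%, 4.18% and 3.42%. The 5 Mb window with the most regions, 9 of 1423, was on chromosome 20 from 55 to 60 Mb, and the highest rate in the 12 fullest windows was 10.9 per 1000 on chromosome 9 from 20 to 25 Mb, with 8 of 735. These windows were chosen after the counts were seen and have no test. A pair of neighbouring regions on chromosome 6, between 95083526 and 95085096, lay over 100 kb from any DMSO peak and over 400 kb from the nearest annotated gene, the pseudogene CYCSP17, at mean percentiles of 58.7 and 41.1.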
